A study of Rattus norvegicus with 6 samples.

Results

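The genes examined here encode the transport machinery and the gate of the primary cilium, and their mRNA levels were read in cultured neural progenitors of the rat. Members were chosen by a rule on gene symbols, set with earlier results of these data known. It took the numbered Ift, Bbs, Tctn, Nphp and B9d genes together with Mks1, Arl13b, Arl3, Cep290, Cc2d2a, Rpgrip1l, Ofd1, Tmem67 and Tmem216. The rule found 34 of the 17337 gene IDs of the mRNA-seq tables. Cc2d2a, Ift140, Bbs9, Bbs12 and Tctn3 were not analysed here.

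The study profiled transcription initiation and polyA RNA in cortical neural progenitors, and only its mRNA-seq libraries are used here. Cells came from the cortices of Sprague Dawley embryos of either sex at embryonic day 14, grew in a serum-free neural medium with bFGF and EGF, and were collected after the second passage. No cells were treated and there was 1 condition, so the data hold no contrast between treatments. Replicates A and B were 2 biological replicates, each sequenced as 2 technical libraries (A1 and A2, B1 and B2), as the sample labels give it. Column names in a supplementary list of the study could also mean that B1 belongs with A1 and B2 with A2, so the meaning of the replicate and technical differences rests on the labels. A value given as mean ± SD is over the 2 biological replicates after the technical libraries were averaged, and no p-value was computed.

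The primary cilium is a single, non-motile antenna built on the mother centriole. Proteins enter it past the transition zone, a gate at the base that is made of the MKS and NPHP modules, and are carried along it by intraflagellar transport (IFT) trains, while the BBSome is an adaptor that takes membrane proteins out again. In neural progenitors of the cortex the cilium projects into the ventricle and carries receptors of the Hedgehog pathway, and defects of these genes cause ciliopathies such as Joubert, Meckel and Bardet-Biedl syndromes.

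Genes of cilia are known targets of RFX transcription factors, which bind the X-box, an inverted repeat of 14 letters. The promoter sequence of each member was therefore taken from RefSeq on build GRCr8, as the 250 bases before and 50 after the gene start. A window was matched for 25 of the 34 members. The 9 members with no matched window included Arl13b, Arl3, Bbs10, Ift57, Ift74, Ift80 and Tmem67. Within 3 mismatches of the X-box consensus, 9 of the 25 windows (36%) held a match. The same search found a match in 5.37% of all 33469 rat promoter windows and in 4.52% of the 8354 windows of genes that reached 1 FPKM, the expression unit explained below. The 9 matches are printed because they carry this difference in share. Each line gives the gene, then 30 bases around the match in the direction of the gene, with the 14 letters of the match in capitals.
Mks1: gcgtctccGTTGCCAGGGGAACggggcgcg
Tctn2: gattggtgGTTGCCATGGCTGCgggcattt
B9d1: tgccatctGTTTCCAAGACAACccaggagc
Bbs1: ctgagctgGTTGCCAAGACGACgcctggga
Bbs5: gccgatgcGTTGCCTTGGTGTCcataagac
Bbs7: gcgtcttgGTTGGCCTGGAAACcggctgta
Ift172: cttggcggGTTGTCCAGGTAACcgtgggag
Ift22: tgttcccgGTCGCCGTGGAAACcgatcagc
Tmem216: cgtacgcaGTTTCCATGGGGACtgaacatg

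The closest matches, with 2 mismatches each, were those of the transition zone genes Mks1 (GRCr8 chr10:73153157-73153186, plus strand, first letter of the match 56 bases before the start) and Tctn2 (chr12:37668056-37668085, minus strand, 42 bases before the start). The other 7 had 3 mismatches. They lay at B9d1 (chr10:46686146-46686175, plus strand), Bbs1 (chr1:211633431-211633460, minus strand), Bbs5 (chr3:74818593-74818622, plus strand), Bbs7 (chr2:121402586-121402615, minus strand), Ift172 (chr6:30801954-30801983, plus strand), Ift22 (chr12:25405496-25405525, minus strand) and Tmem216 (chr1:216626501-216626530, minus strand). Of the 9 matches, 6 began before the gene start and 8 began within 60 bases of it. The exception was Bbs7, whose match began 134 bases before the start. The X-box consensus reads alike on both strands, so a single search covered both.

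Each arm of the X-box is close to GTTGCC. This arm, searched alone on either strand, occurred in 12 of the 25 members' windows (48%), against 12.2% of all windows and 12.7% of the windows of genes at 1 FPKM or more. The counts overlap, since the arm stood inside the X-box match of 4 members, Mks1, Tctn2, Bbs1 and Bbs5. TATAAA on the sense strand occurred in 0 of the 25, against 8.80% of all windows and 4.01% of those of genes at 1 FPKM or more. Members' windows had a median GC content of 59.3%, close to the 61.3% of windows of genes at 1 FPKM or more and above the 51.7% of all windows. Among windows of genes at 1 FPKM or more with a GC content in the interquartile range of the members' windows, 5.22% held an X-box match. These shares describe letters in a window, and a window with no match says only that the letters are not in it. Cilium genes outside the rule held an X-box match in 11 of 60 windows (18.3%) and the arm in 30%, and genes of motile cilia held a match in 4 of 20 (20%) and the arm in 40%. The order of these sets depends on the limit: with at most 2 mismatches a match was held by 8% of the members' windows, 10% of those of each of the other cilium sets and 1.59% of all windows.

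**Figure D1:**
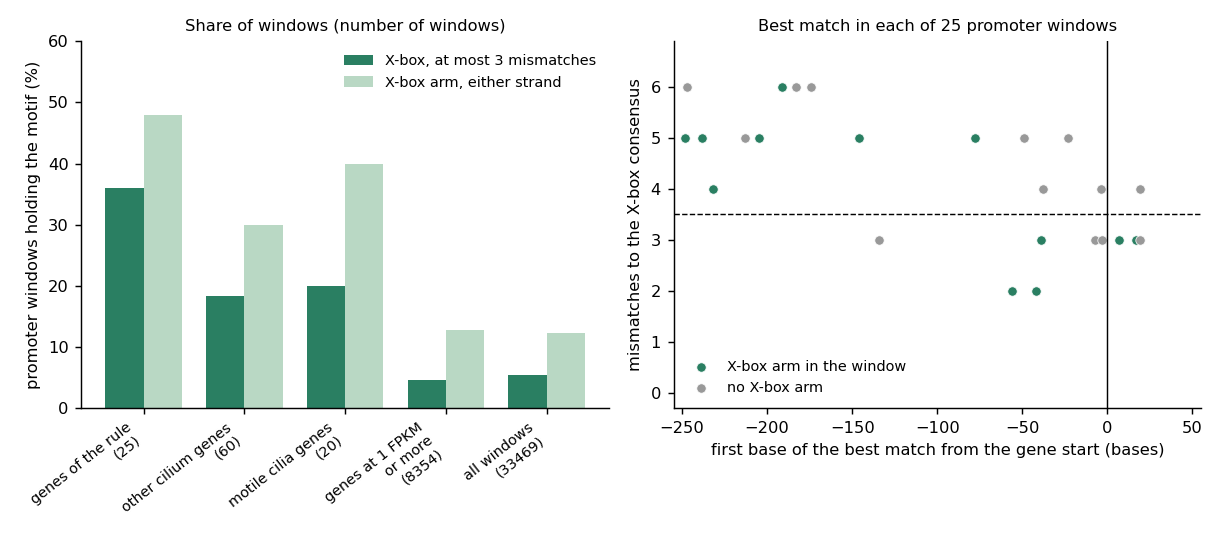
The left plot gives the share of promoter windows (%) that hold an X-box match or the X-box arm, by gene set with the number of windows, and at the limit of 3 mismatches the members stand at 36% and 48%. The right plot gives, for the best match in each of the 25 members' windows, its first base relative to the gene start (bases) against its mismatches to the consensus, with the 9 matches under the dashed line and 8 of them within 60 bases of the start.

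The mRNA level is given as FPKM, fragments per kilobase of transcript, scaled to the size of the library, so that levels can be compared between genes. All 34 members reached a mean of at least 1 FPKM, and all 34 did so in each of the 4 libraries. Of all gene IDs, 60.5% reached that mean and 57.2% did so in every library. The members' median was 22.1 FPKM, above the 16.6 FPKM of all gene IDs at 1 FPKM or more, and 20 members lay above the latter value. Of the members, 25 lay from 10 to 60 FPKM, 6 from 5 to 10 FPKM and 2 under 5 FPKM, with Arl3 alone above. Across the genes, the SD between replicates had a median of 11.2% of the mean and was highest, at 37.4%, for Ift88.

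In the libraries as a whole, all 9 listed neural progenitor markers that were found reached 1 FPKM. They ran from Pax6 at 33.9 FPKM to Fabp7 at 11841 FPKM, with Sox2 at 478 FPKM. Some markers of other cells were also high. The mesenchymal marker Col3a1 stood at 486 FPKM, the oligodendrocyte lineage marker Olig1 at 282 FPKM and the neuron marker Tubb3 at 118 FPKM. Endothelial markers summed to between 0.696 and 4.29 FPKM per library and microglial markers to between 3.95 and 7.25 FPKM. Depth was uneven, since 1 FPKM corresponded to a read coverage of 22.7 to 24.4 in A1, A2 and B1 but of 6.83 in B2. In B2 the mean coverage of Cep290, a member of low level, was 16.7. B1 and B2 differed widely in some markers, with Foxc1 at 29.4 and 115 FPKM, Ttr at 26.4 and 3.03 FPKM and Otx2 at 16.8 and 0 FPKM. In bulk RNA, fewer cells of a type and less RNA per cell cannot be told apart.

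**Figure D2:**
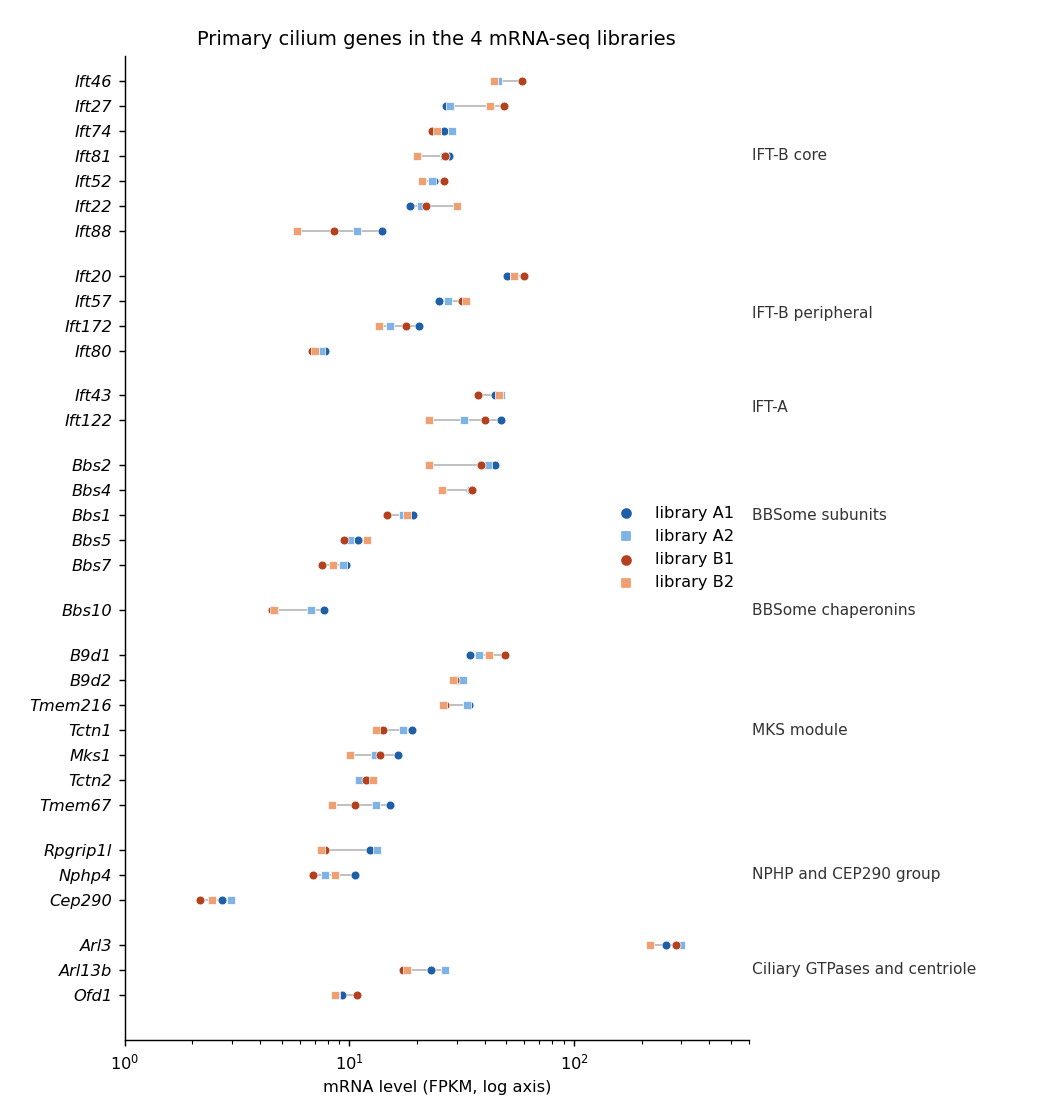
Each point is the FPKM (log axis) of a member in 1 library, with 32 members grouped by role and a grey line from the lowest to the highest library. Arl3, at 218 to 298 FPKM, lies apart from all others shown, and Cep290, at 2.17 to 2.97 FPKM, is the lowest member shown.

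IFT trains are built from an IFT-B complex, which moves cargo outwards, and an IFT-A complex, which serves the return and the import of membrane proteins. Among the 7 core IFT-B members the mean level ran from 48.2 FPKM for Ift46 to 9.79 FPKM for Ift88, a 4.93-fold range (3.65 in replicate A and 7.12 in replicate B). Ift46 (rn6 chr8:49081080-49097687, plus strand) measured 44.4 and 45.9 FPKM in replicate A and 58.6 and 44.0 FPKM in replicate B, so that B1 stood apart from the other 3 libraries. Ift88 (chr15:37691394-37784924, plus strand), a core scaffold without which cilia do not form, measured 14.0 and 10.8 FPKM in A and 8.56 and 5.84 FPKM in B. It was higher in both libraries of A than in either of B, with a mean of 9.79 ± 3.66 FPKM and a difference B minus A of -0.72 on the log2(FPKM + 1) scale. This scale is used for all log2 differences here and understates the change of low genes.

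Ift27 (chr7:119393384-119409710, minus strand), a Rab-like GTPase of the train that links it to the BBSome, went the other way. It measured 26.9 and 28.1 FPKM in A and 48.8 and 42.2 FPKM in B, a mean of 36.5 ± 12.8 FPKM and a log2 difference of 0.70, or 1.66-fold higher in B. Its partner in the train, IFT25, is encoded by Hspb11, which lies outside the rule and measured 34.5 and 41.5 FPKM in A and 37.2 and 28.0 FPKM in B. The level ratio of Ift27 to Hspb11 was therefore 0.723 in A and 1.40 in B. Ift52 and Ift88, neighbours in the core, also differed in balance, with a ratio of 1.90 in A and 3.30 in B. Ift74 and Ift81, whose products pair and bind tubulin, stood at a ratio of 1.02 in A and 1.03 in B, with single libraries from 0.877 to 1.23.

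The other core members lay from 22.8 to 25.8 FPKM. Ift74 measured 26.5 and 28.7 FPKM in A and 23.4 and 24.7 FPKM in B, and Ift81 measured 27.8 and 26.3 FPKM in A and 26.6 and 20.0 FPKM in B. Ift52 measured 23.8 and 23.4 FPKM in A and 26.5 and 21.1 FPKM in B, with replicate means that nearly coincided (23.7 ± 0.145 FPKM). Ift22, a small GTPase of the core, measured 18.5 and 20.8 FPKM in A and 21.9 and 30.05 FPKM in B, with no overlap.

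Peripheral IFT-B members spread over a 7.52-fold range. Ift20 (chr10:65805860-65811351, plus strand), which also acts at the Golgi, was the highest IFT gene with 50.2 and 54.3 FPKM in A and 60.1 and 54.0 FPKM in B, a mean of 54.6 ± 3.40 FPKM. Ift57 measured 25.1 and 27.4 FPKM in A and 31.8 and 33.1 FPKM in B, so that both libraries of B were higher. Ift172 followed with 20.4 and 15.2 FPKM in A and 17.8 and 13.5 FPKM in B, where the libraries overlapped. Ift80 (chr2:165506878-165600748, minus strand), mutated in skeletal ciliopathies, was the lowest with 7.79 and 7.49 FPKM in A and 6.80 and 6.99 FPKM in B.

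The IFT-A members found were Ift43 and Ift122. Ift43 (chr6:109939345-110016644, plus strand) measured 44.5 and 47.1 FPKM in A and 37.4 and 46.2 FPKM in B. Ift122 (chr4:147756667-147826983, plus strand) measured 47.5 and 32.3 FPKM in A and 40.3 and 22.5 FPKM in B, a spread within each replicate larger than the difference of the replicate means. Neither separated the replicates. The mean levels of the pair were 1.23-fold apart. Of the IFT-A genes outside the rule, Wdr19 was the lowest at 4.92 ± 1.02 FPKM.

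BBSome subunits of the rule ranged over 4.19-fold, and over 4.98-fold with Ttc8, a subunit outside the rule at 7.38 FPKM. The highest was Bbs2 (chr19:11386024-11421498, plus strand), with 44.6 and 41.2 FPKM in A and 38.6 and 22.5 FPKM in B. Next came Bbs4 (chr8:64121392-64154396, minus strand), with 34.5 and 34.7 FPKM in A and 35.2 and 25.7 FPKM in B. In both genes B2 was the lowest library, and for Bbs4 it alone stood apart. Bbs1, whose product binds the membrane GTPase Arl6, measured 19.3 and 17.3 FPKM in A and 14.7 and 18.1 FPKM in B. Bbs5 measured 10.9 and 10.02 FPKM in A and 9.49 and 11.98 FPKM in B. Bbs7 (chr2:123283402-123322991, minus strand), the lowest subunit of the rule, measured 9.67 and 9.38 FPKM in A and 7.56 and 8.48 FPKM in B. Thus Bbs2 mRNA stood 4.50-fold above that of Bbs7, its partner in the assembly core, in replicate A and 3.81-fold in replicate B. Bbs10 (chr7:54031324-54034347, plus strand), a chaperonin-like protein needed to assemble the BBSome rather than a subunit, was lower still at 7.68 and 6.76 FPKM in A and 4.54 and 4.61 FPKM in B, with no overlap.

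In the MKS module of the transition zone, the B9-domain gene B9d1 was highest, with 34.5 and 37.8 FPKM in A and 49.4 and 42.0 FPKM in B. Its row is uncertain: it spans 1243 kb on rn6 (chr10:47785019-49028067, plus strand), overlaps 17 other genes, and has a coverage per FPKM that is 0.50 of the library's median in all 4 libraries, which leaves its level uncertain by that ratio and its place above B9d2 unsure. The related B9d2 measured 30.7 and 32.1 FPKM in A and 29.5 and 28.8 FPKM in B. Tmem216, a membrane protein of the gate, was close to it with 34.2 and 33.3 FPKM in A and 26.6 and 26.2 FPKM in B. These genes formed the upper part of the module.

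The remaining MKS genes lay between 11 and 16 FPKM. The tectonic genes Tctn1 and Tctn2 were near in level: Tctn1 measured 18.9 and 17.4 FPKM in A and 14.1 and 13.1 FPKM in B, and Tctn2 measured 12.02 and 11.1 FPKM in A and 11.8 and 12.8 FPKM in B. Their ratio was 1.57 in A and 1.10 in B, since only Tctn1 separated the replicates. Mks1, the B9-domain gene that names the module, measured 16.5 and 12.9 FPKM in A and 13.7 and 10.1 FPKM in B. Tmem67 (chr5:25666138-25721056, minus strand), which encodes the receptor-like protein meckelin, was the lowest with 15.1 and 13.2 FPKM in A and 10.6 and 8.41 FPKM in B. The module's fold range was 3.46, and 2.56 without B9d1.

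Of the NPHP and CEP290 group, Rpgrip1l, Nphp4 and Cep290 are described here, and each lay below the 15.9 FPKM median of the MKS module. Nphp4 (chr5:169659188-169744660, plus strand), a structural protein of the gate, measured 10.6 and 7.77 FPKM in A and 6.92 and 8.65 FPKM in B. Rpgrip1l (chr19:17115412-17208055, plus strand), a scaffold of the gate mutated in Joubert syndrome, measured 12.3 and 13.3 FPKM in A and 7.76 and 7.46 FPKM in B. Its mean was 10.2 ± 3.67 FPKM and the gap between the replicates was wider than that between technical libraries. Cep290 (chr7:40217269-40306327, plus strand), which bridges microtubules and membrane, measured 2.70 and 2.97 FPKM in A and 2.17 and 2.45 FPKM in B. Both libraries of A were above those of B for Rpgrip1l and Cep290, and the libraries overlapped for Nphp4.

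Arl3 (chr1:266287018-266322856, minus strand), a GTPase that unloads lipid-anchored proteins inside the cilium, had the highest level with 256 and 298 FPKM in A and 286 and 218 FPKM in B, a mean of 264 ± 18.1 FPKM. It ranked 339 among all gene IDs, and was 4.84-fold above Ift20, the next member. Arl13b, the ciliary membrane GTPase that activates Arl3, measured 23.1 and 26.8 FPKM in A and 17.3 and 18.0 FPKM in B. The level ratio of Arl3 to Arl13b was 11.1 in A and 14.3 in B. Ofd1 (chrX:29562165-29602931, plus strand), a protein of the centriole and its satellites, measured 9.24 and 8.69 FPKM in A and 10.8 and 8.63 FPKM in B.

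Of the 33 neighbouring pairs in the order of mean level, 3 had no overlap between their libraries, among them Arl3 over Ift20 and Bbs10 over Cep290 (2.29-fold). The order of the neighbours in the other 30 pairs was within their spread. Across genes, the Spearman correlation between the genomic span of a gene and its mean FPKM was -0.21 for the 34 members and -0.22 for 10405 gene IDs at 1 FPKM or more, values that share the same libraries.

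**Figure D3:**
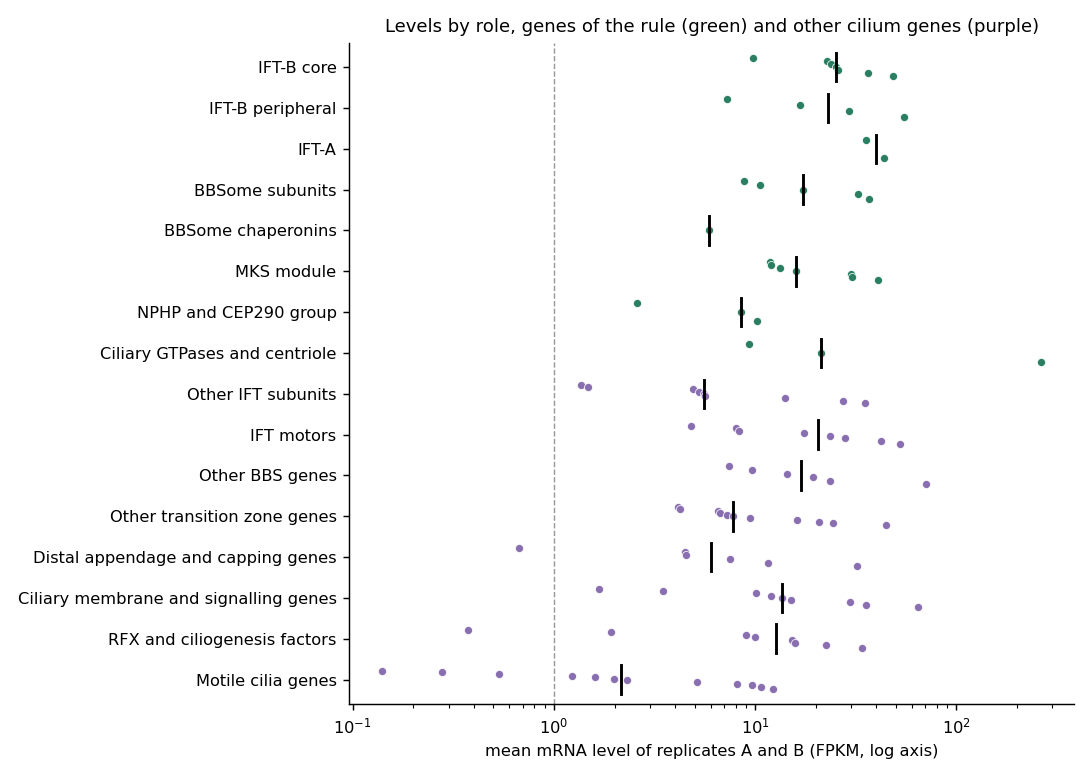
Points are genes at their mean FPKM (log axis) by role, with a black bar at the median of each list and a dashed line at 1 FPKM. Green lists hold 32 members, whose group medians run from 5.90 FPKM (the single chaperonin Bbs10) to 39.7 FPKM (IFT-A), and purple lists hold other cilium genes, where motile cilia genes have a median of 2.15 FPKM.

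Cilium genes that the rule leaves out were listed to place the members in the pathway. Of 61 such genes in 6 lists (other IFT subunits, IFT motors, other BBS genes, other transition zone genes, distal appendages, and ciliary membrane and signalling proteins), 49 were found and 48 reached 1 FPKM. Their median was 10.1 FPKM, against 22.1 FPKM for the members. The highest was Rab8a, a GTPase of vesicle delivery to the cilium, at 70.4 ± 8.12 FPKM, and the lowest was Ttbk2, the kinase that starts cilium assembly, at 0.671 ± 0.196 FPKM. By the criterion used for the members below, 0 of these genes differed between A and B. Of all gene IDs at 1 FPKM or more, 1.57% were higher in A and 4.58% higher in B. At a log2 difference of at least 0.58, 3 of the 48 cilium genes were higher in B, Nek8, Smo and Evc2, against 9.33% of all. In A, 0 were higher, against 7.19%. With no minimum difference, 18 of the 48 had both libraries of A above both of B, against 32% of all. The reverse held for 10, against 28.1%. The median log2 difference B minus A was -0.12, against -0.03 for all.

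Replicates A and B were compared to see how far these levels vary between cultures. A gene was counted as differing where the log2 difference was at least 1 and the libraries of A and B did not overlap. By this criterion 0 of 34 members were higher in A, against 1.57% of all gene IDs at 1 FPKM or more, and 0 were higher in B, against 4.58%. At a log2 difference of at least 0.58, Ift88 and Rpgrip1l were higher in A (2 of 34, against 7.19% of all) and Ift27 was higher in B (1 of 34, against 9.33%). For Ift88 this rests on single libraries, since its difference was -0.54 without A1 and -0.47 without B2. With no minimum difference, 13 members (38.2%) had both libraries of A above both of B, against 32% of all gene IDs at 1 FPKM or more. Only 4 members (11.8%), Ift27, Ift22, Ift57 and B9d1, had both libraries of B above, against 28.1%. In the other 17 the libraries overlapped.

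The size of the differences was close to that of other genes. Members had a median absolute log2 difference between replicates of 0.21, against 0.24 for all gene IDs at 1 FPKM or more. Between technical libraries it was 0.11 in A, as for all genes, and 0.26 in B, against 0.22 for all genes. In direction, 24 of 34 members (70.6%) had the lower mean in B, against 53.8% of all, and the median log2 difference was -0.16 against -0.03. By role, Rpgrip1l, Nphp4 and Cep290, 5 of 7 MKS genes and 4 of 5 BBSome subunits were lower in B, whereas the IFT-B core held 3 lower and 4 higher. The largest differences were those of Ift88 (-0.72), Ift27 (0.70), Rpgrip1l (-0.68), Bbs10 (-0.56) and Tmem67 (-0.53).

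**Figure D4:**
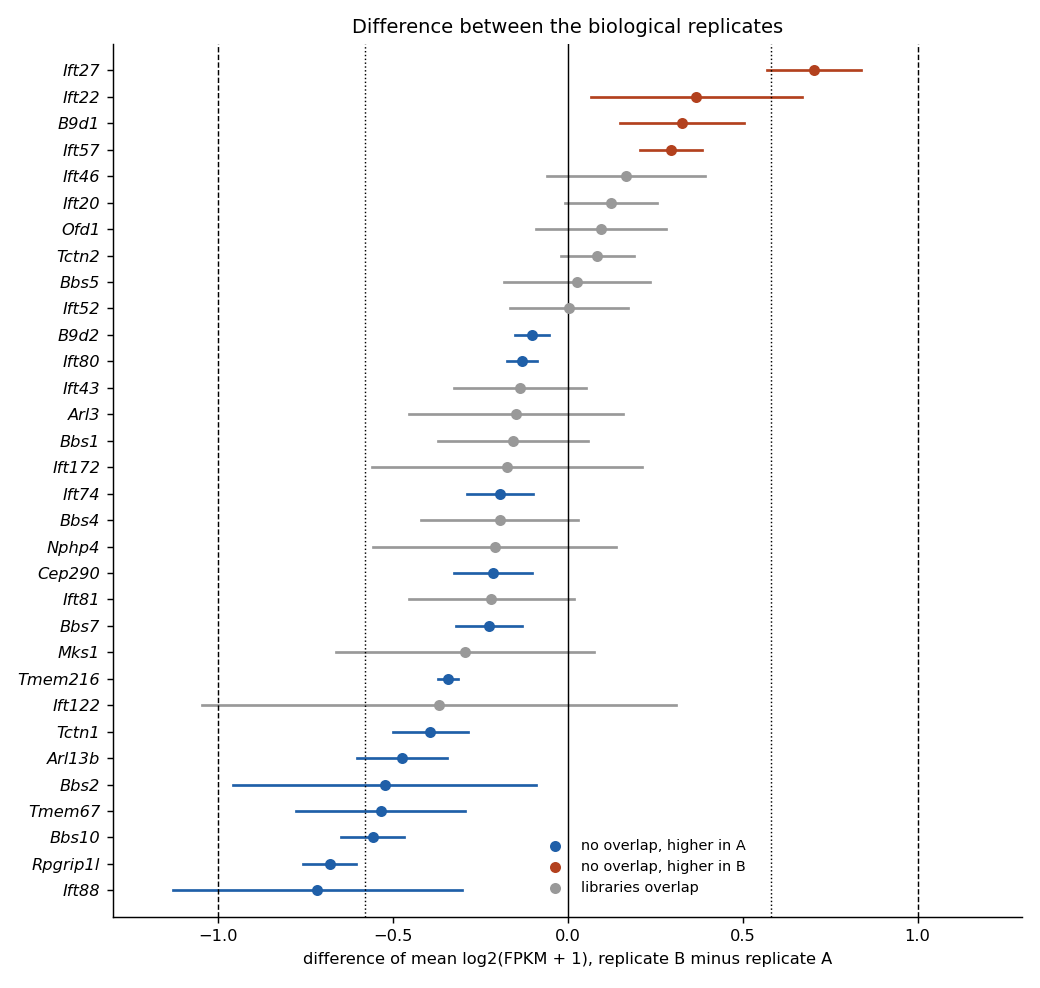
Points are the difference of mean log2(FPKM + 1), B minus A, for 32 members, and lines run over the 4 differences between single libraries of B and A. Blue members (13) were higher in A without overlap and red members (4) higher in B, and no point reaches the dashed lines at 1 and -1.

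Other features of the libraries moved along with this direction, and their part in it was not tested. The shallow library B2 was the lowest of the 4 for 17 members (50%, against 34.0% of all gene IDs at 1 FPKM or more). Without B2 the median log2 difference of the members was -0.11 and 21 members were lower in B. Counts of members without overlap grow when a library is dropped, since fewer values must separate: higher in A were 20 without A2 and 23 without B1, against 40.2% and 47.4% of all genes, and higher in B were 7 without B1 and 9 without B2, against 40.7% and 40.3%. Meningeal and mesenchymal markers were higher in B for 9 of 9 genes, 8 of them by the criterion of at least 1, and their summed level was 643 to 662 FPKM in A and 2485 to 3005 FPKM in B. Neural progenitor markers summed to 21001 to 23070 FPKM in A and 10019 to 10774 FPKM in B, with 7 of 9 lower in B, 6 of them without overlap. Fabp7 made up most of this sum, and without it the list summed to 4201 to 4513 FPKM in A and 3499 to 5289 FPKM in B, which overlap. Vim made up most of the rest, with 2882 and 3171 FPKM in A and 2652 and 4458 FPKM in B. Of 8 proliferation markers 7 were higher in B, 6 without overlap, and the list summed to 230 to 253 FPKM in A and 239 to 326 FPKM in B. Neuron markers summed to 148 to 169 FPKM in A and 127 to 141 FPKM in B, and the 6 of 8 that reached 1 FPKM had the lower mean in B. Oligodendrocyte lineage markers summed to 264 to 290 FPKM in A and 360 to 702 FPKM in B, with 4 of the 5 at 1 FPKM or more higher in B.

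Genes of motile cilia, which beat and are not part of the primary cilium, gave a point of comparison. Of 19 listed, 12 were found and 9 reached 1 FPKM. All 9 had a lower mean in B, against 53.8% of all gene IDs at 1 FPKM or more. Of the 9, 7 were lower without overlap, against 32% of all. The median log2 difference was -0.63, and 0 of the 9 differed by the criterion of at least 1. Several were low, with Ccdc40, Dnai2, Drc1 and Dnai1 at 1.22 to 2.32 FPKM. Ccdc39, a ruler protein of the motile axoneme, measured 10.9 and 11.2 FPKM in A and 5.12 and 5.40 FPKM in B. Choroid plexus and ependymal markers, from cells that carry such cilia, summed to 137 to 140 FPKM in A and 60.9 to 81.9 FPKM in B. Without Ttr the list summed to 55.9 to 57.8 FPKM in A and 55.5 to 57.9 FPKM in B, which overlap. Of the 8 genes only 4 reached 1 FPKM, 2 with the lower and 2 with the higher mean in B, and Otx2 was at 0 in B2. The difference between this list and the members was not tested.

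**Figure D5:**
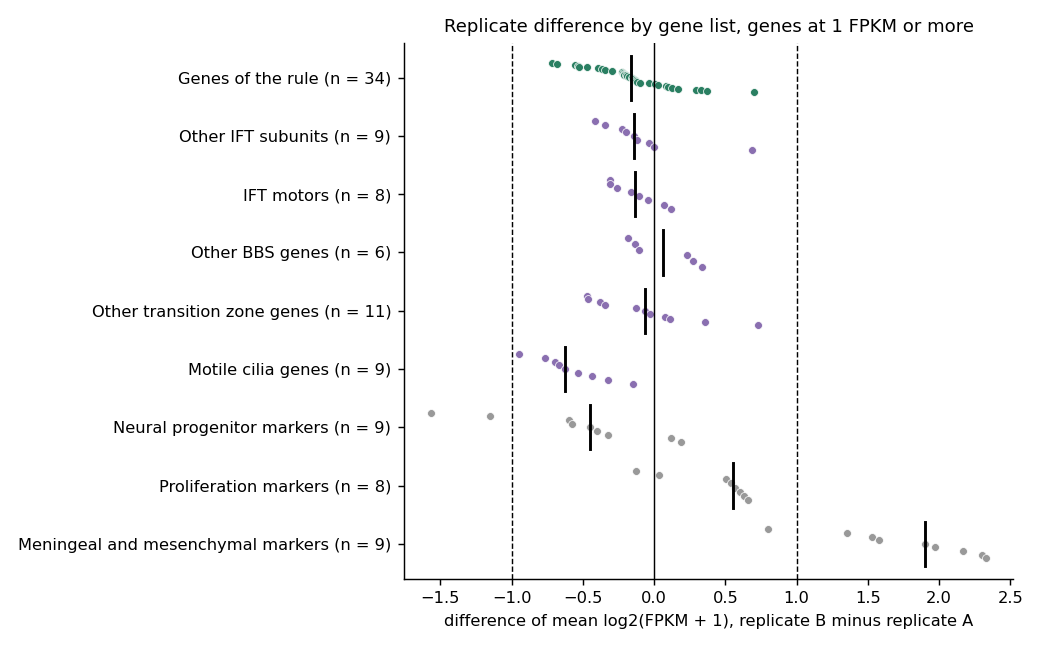
Points are genes at a mean of at least 1 FPKM, placed by the difference of mean log2(FPKM + 1), B minus A, with a black bar at the median of each list and dashed lines at 1 and -1. The 34 members centre on -0.16, motile cilia genes on -0.63 and meningeal and mesenchymal markers on 1.90.

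In the rn6 positions of the tables, 6 of 34 members (17.6%) started within 1000 bases of a gene that runs away from them on the opposite strand, against 6.51% of all genes placed and 9.66% of those at 1 FPKM or more. The distances between starts were 87 bases for Ofd1 and Trappc2, 167 for Ift20 and Tnfaip1, 213 for Cep290 and Tmtc3, 259 for Ift80 and Smc4, 313 for Nphp4 and Kcnab2, and 314 for Rpgrip1l and Fto. Levels within a pair ranged from near to far apart. Ift20 at 54.6 FPKM faced Tnfaip1 at 43.5 FPKM. Nphp4 at 8.49 FPKM faced Kcnab2 at 0.777 FPKM, whereas Ofd1 at 9.33 FPKM faced Trappc2 at 39.6 FPKM. Rpgrip1l and Fto, an RNA demethylase gene, differed in opposite directions between the replicates, since Fto measured 14.1 and 13.2 FPKM in A and 17.8 and 23.1 FPKM in B, a log2 difference of 0.54 against -0.68 for Rpgrip1l. Members overlapped another gene in 6 of 34 cases, a share of 17.6% against 18.5% of all genes placed and 15.1% of those at 1 FPKM or more. The overlap was on the same strand for B9d1, B9d2 and Ift74, and how the authors' counting treated strand is not given in the sources used here.

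Members whose promoter held an X-box match had a median level of 16.7 FPKM, against 27.7 FPKM for the other members with a window, and the median log2 difference B minus A was -0.16 against -0.20. Both closest matches belonged to genes of moderate level, Mks1 at 13.3 FPKM and Tctn2 at 11.9 FPKM.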

How the data were processed

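PolyA RNA was sequenced from 2 biological replicates of rat cortical neural progenitors, each as 2 technical libraries, per the labels. STAR was the aligner and rn6 the genome used by the authors. The deposited tables have the layout of StringTie, whereas in their methods the authors credit Rsubread and DESeq2 with the FPKM. The deposited FPKM values are scaled by the authors for length and library size, the deposited TPM values sum to 1000000 per library, and the deposited coverage is a mean read depth that is not scaled for library size. Tool versions are not given in the sources used here. The depth of each library was read from its coverage per FPKM, since total read numbers are not in the tables.

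Rows that share a gene ID were added up in FPKM, then averaged over technical libraries, and then over replicates A and B. Differences were taken on log2(FPKM + 1) at a mean of at least 1 FPKM. Counting was tested on simulated data, which checks the computation and not how often the criteria err in these libraries. A library stood apart where Dixon's ratio for 4 values exceeded 0.829. The members and gene lists were chosen with earlier results of these data known. Members are named with every library's value, except 2 that count in the totals and are not reported here by name. Alternatives were TPM, size factors, other thresholds and pseudocounts, and leaving out libraries or replicates. Promoter windows of 300 bases came from RefSeq on GRCr8 and were searched for the X-box, allowing 3 mismatches. Coordinates of genes are those of the tables on rn6, and no coordinates were converted. The biological replicates are described only as independent, and Start-seq was not analysed here. Scripts ran in Python 3.11.15. They used scipy 1.17.1, pandas 2.3.3 and numpy 2.4.6, and figures were drawn with matplotlib 3.10.9.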

Additional observations from a re-analysis of the deposited data

Results flagged for a closer look

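A single library lay far from the other 3 in 2 members. Ift46 measured 58.6 FPKM in B1 against 44.0 to 45.9 FPKM in the others, and Bbs4 measured 25.7 FPKM in B2 against 34.5 to 35.2 FPKM in the others. Chance flags about 1 in 20 groups, and the 4 libraries are technical pairs of 2 cultures, so they are not independent. Among the libraries, B2 stood apart in depth, with a coverage of 6.83 per FPKM against 22.7 to 24.4.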

How the results depend on the processing

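Of 108 alternatives to 20 results, 94 left the result within its spread or within 1.5 times its count and 14 moved it. Only the log2 differences have a sign that could reverse, and 0 of them did. For single genes the spread was the SD over the differences between single libraries of B and A. Leaving out a library could not move a gene's difference beyond that spread, so those alternatives were not a test. The members' median was 37.04 in TPM, and 20.5 to 21.6 FPKM with a biological replicate left out. At a log2 difference of 0.58, 3 members differed between replicates. Members without overlap and higher in A numbered 8 of the 26 at 10 FPKM or more, against 31.0% of all genes at that level, and 15 to 23 with a technical library left out, against 39.4% to 47.4%. Those higher in B numbered 5 to 9 with a library left out, against 33.2% to 40.7%. The median log2 difference of the members was -0.22 in TPM, where that of all genes was -0.08, and -0.18 to -0.11 with a technical library left out. The fold range of the MKS module was 3.13 to 4.82 in single replicates. With at most 2 mismatches, chosen after seeing the data, 2 members (8%) held an X-box match, against 10% of the windows of cilium genes outside the rule. The log2 differences of Ift88, Ift27, Rpgrip1l, Bbs10 and Tmem67 kept their sign under all 35 alternatives run. In these genes the libraries of A and B did not overlap. Leaving out a library or changing the pseudocount therefore could not change the sign, and those alternatives do not test it. Rpgrip1l moved to -0.75 in TPM. The causes of the other shifts were not tested. No paired analysis was possible because replicates A and B are single cultures of 1 condition and no result comes from a test. With 2 cultures of 1 condition, the spread between cultures is poorly known, and the low coverage of B2 limits the precision of the lowest members.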

Other observations

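Of 11 listed RFX and ciliogenesis factors, 8 were found and 7 reached 1 FPKM. Rfx5, known for its role at MHC class II genes, was the highest of the RFX genes that were found, at 22.6 ± 4.67 FPKM. Listed genes that were not found have no level here. Rfx2 and Rfx1 followed at 15.7 ± 1.34 FPKM and 15.2 ± 0.261 FPKM. Rfx3, which is known to act on genes of cilia, measured 2.07 and 2.71 FPKM in A and 0.999 and 1.92 FPKM in B, so that both libraries of A were above those of B. Foxj1, the regulator of motile cilia, measured 28.5 and 31.6 FPKM in A and 30.6 and 45.5 FPKM in B, where the libraries overlapped.

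The motors of intraflagellar transport also differed in level. The kinesin genes Kif3a and Kif3b, whose products form the outward motor with that of Kifap3, measured 28.1 ± 4.31 FPKM and 8.04 ± 1.37 FPKM, and Kifap3 measured 23.4 ± 0.535 FPKM. Both Kif3a and Kif3b were higher in A without overlap. In the dynein of the return path the heavy chain gene Dync2h1 was lowest at 4.80 ± 0.729 FPKM and the intermediate chain gene Wdr34 highest at 52.2 ± 3.12 FPKM, a 10.9-fold range over the 8 motor genes found. Smo, the Hedgehog signal transducer that enters the cilium, measured 28.3 and 26.5 FPKM in A and 39.5 and 47.7 FPKM in B, a log2 difference of 0.64 with no overlap.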
